A study of Mus musculus with 2 samples.

Results

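Lens cells of the mouse eyecup were examined here at E13.5 of gestation in 1 control and 1 DKO library of single-cell RNA counts, where DKO stands for the double knockout of Six3 and Six6. Lens cells were chosen by measured values, as cells in which Cryaa and Cryab, the alpha crystallin genes, together held 1% or more of the UMIs. A UMI is a molecular tag that counts 1 captured transcript. Of 22987 cells in both libraries, 20064 passed the limits on genes per cell, mitochondrial and hemoglobin transcripts, and 697 of these were lens cells. The control library gave 354 lens cells of 8597 kept cells (4.12%, 95% binomial interval 3.71 to 4.56%). The DKO library gave 343 of 11467 (2.99%, interval 2.69 to 3.32%).

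The control eyecups were from an embryo of genotype Six3+/-;Six6+/- without GFP, so that 1 copy of each gene was already lost in the control. The DKO eyecups were from a littermate of genotype Six3F/F;Six6-/-;a-Cre. There Six6 was inactivated in the germline, by replacing the fragment that encodes its homeodomain. Exon 1 of Six3 was flanked by loxP sites. It was removed by a Cre that a Pax6 alpha enhancer drives in the peripheral retina, together with GFP. In bulk RNA of mutant retinas the paper reports reduced reads of both genes outside the deleted parts. Activity of this Cre in the lens is not given in the sources used here. Each genotype was 1 library from 1 embryo, hence genotype, embryo and library cannot be told apart and no test between genotypes was possible. DKO embryos were picked by GFP-positive rosettes in the retina. All intervals below are 95% intervals that cover counting error only, and parentheses after a log2 ratio of DKO over control hold its interval. In summed counts, fewer cells of a kind and less RNA per cell cannot be told apart.

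The lens is a closed ball of a single lineage. Epithelial cells at the front divide, and at the equator they leave the cell cycle, elongate and become fibre cells under FGF and BMP signals from the eye. Early fibres fill with alpha and beta crystallins, and the gamma crystallins, which pack most densely in the fibre core, come on later. The gamma crystallin share of a cell's UMIs was therefore used as a scale of fibre maturity. Fibres also lay down membrane proteins (Mip, Lim2 and the connexin Gja3) and beaded filaments (Bfsp1 and Bfsp2), and in the end they lose their organelles.

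The lens cells held 4015662 UMIs in the control and 3112593 in the DKO library, with medians of 5517 and 7998 UMIs a cell. Of 22 barcodes present in both libraries, none was a lens cell in both. Doublet calling marked 2 control and 3 DKO lens cells. Cells just inside the threshold (1.0 to 1.1% alpha crystallin) numbered 9 in the control and 12 in the DKO library, and cells just outside it (0.9 to 1.0%) numbered 11 and 12. Their median beta crystallin shares were 0.971% and 0.998% inside and 0.924% and 0.936% outside, so the threshold cut through a continuous range of cells. Between 0.5% and 1% lay 58 control and 69 DKO cells.

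Lens genes that the selection did not use were far higher in these cells than in the other kept cells. Crybb3, a beta crystallin gene, stood at 29784 CPM (UMIs per 1000000 UMIs summed over the cells) in control lens cells against 126 CPM in the other kept cells. In the DKO library it stood at 10572.5 against 70.9 CPM. Lim2, a fibre membrane protein, stood at 1280.2 against 4.62 CPM in the control and 663 against 3.26 CPM in the DKO library. Among genes with the highest ratio of lens over other cells in both libraries were also Gje1 and Gja3, which encode connexins, the water channel gene Mip, the galectin-related Grifin, Crygn, Tmem40, Cpne7 and Col6a3. A few genes known from lens were at or near 0, although the cells were otherwise rich in lens transcripts. Foxe3, a factor of the lens epithelium, had 13 UMIs in the control and 19 in the DKO lens cells, and Dnase2b, the nuclease of nuclear breakdown in fibres, had no UMI in either library (upper limits 0.919 and 1.19 CPM).

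Markers of most other cell types were scarce. Those of red blood cells and, mainly through Sfrp2, of retinal progenitors were less so. The 6 macrophage markers summed to 0.747 and 8.67 CPM in control and DKO lens cells, the 6 pigment epithelium markers to 3.74 and 8.35 CPM, and the 8 mesenchyme markers to 4.73 and 4.18 CPM. The 6 endothelial markers summed to 6.47 and 4.82 CPM and the 7 markers of surface ectoderm and cornea to 16.2 and 19.6 CPM. The 9 markers of neurogenic and ganglion cells reached 114 and 233 CPM, which was 3.57% and 4.95% of their level in the other cells. Stmn2, the most abundant of them in the other cells of both libraries, was at 18.4 and 73.6 CPM. Of 4 markers counted Stmn2, Gap43 and Tubb3 were at least 2-fold higher and Atoh7 was lower in DKO lens cells. Among all genes counted, 3.45% were at least 2-fold higher and 1.48% lower. The other DKO cells were also higher in Stmn2 (694 and 1284 CPM). The part of retinal RNA in the lens ratios below was not tested. The 8 markers of retinal progenitors reached 382 and 476 CPM, which was 13.3% and 33.8% of their level in the other cells. Most of it was Sfrp2, a secreted Wnt modulator, at 276 and 362 CPM in lens cells against 1305 and 417 CPM in the other cells. In DKO lens cells Sfrp2 was among the 10 genes with the lowest ratio of 10% or more over under 1% gamma crystallin. The 13.3% and 33.8% thus depend largely on Sfrp2 and do not measure a share of retinal RNA.

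Hemoglobin transcripts were more abundant in the control lens cells. The 8 red blood cell markers summed to 1619 CPM in the control against 365 CPM in the DKO library. A single control lens cell with 17.4% hemoglobin held 3754 of 6496 hemoglobin UMIs. Hbb-bt, an adult beta globin gene, was the 1 globin gene among the 10 genes lowest in DKO over control lens cells, at 282 CPM in the control and 37.9 CPM in the DKO library. When the 2 control lens cells with 1% hemoglobin or more were left out, its log2 ratio went from -2.90 to -0.53.

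The lens cells of the DKO library lay lower on the gamma crystallin scale. In the control, 213 lens cells held under 1% gamma crystallin, 77 held 1% to under 10%, and 64 held 10% or more. In the DKO library these numbers were 309, 18 and 16. Cells at 10% or more thus made up 18.1% of control lens cells (95% binomial interval 14.2 to 22.5%) and 4.66% of DKO lens cells (2.69 to 7.46%). Cells between 1% and 10% made up 21.8% (17.6 to 26.4%) and 5.25% (3.14 to 8.17%). These counting intervals do not overlap in any of the 3 ranges. With 1 embryo a genotype this is no test between genotypes, and the spread between embryos is not known. With an alpha crystallin threshold of 5% the intervals overlap at 10% gamma crystallin or more. The shares there were 33.9% (26.9 to 41.5%) in the control and 19.7% (10.9 to 31.3%) in the DKO library. Few cells lay near the limits: 7 control and 3 DKO cells lay between 0.9 and 1.1%, and 11 and 3 between 9 and 11%.

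**Figure D1:**
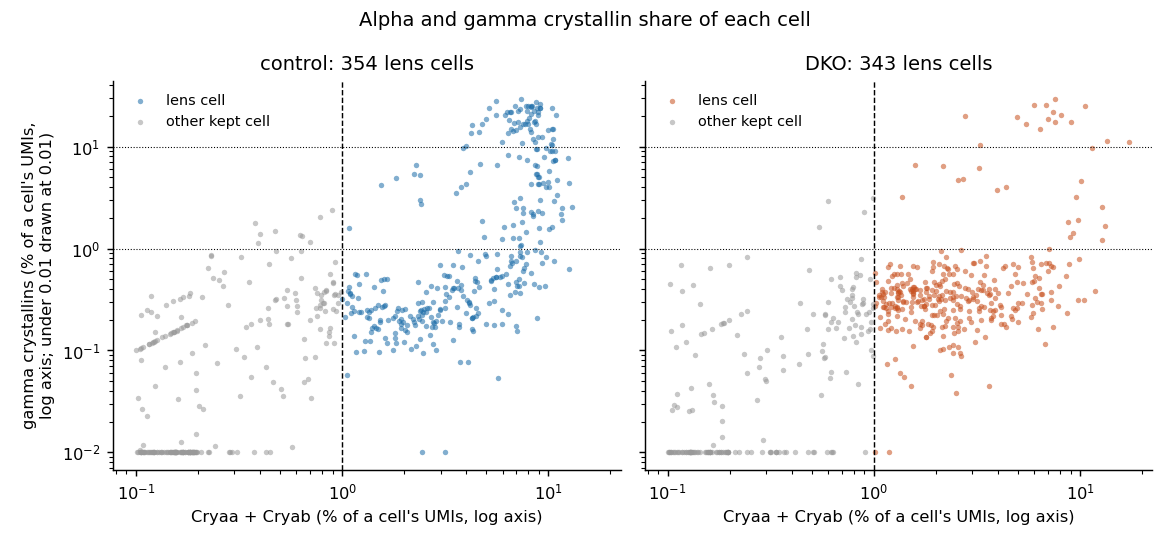
Each point is a cell with at least 0.1% alpha crystallin. The x axis gives Cryaa plus Cryab and the y axis the gamma crystallins, both in percent of the cell's UMIs on log axes, with shares under 0.01% drawn at 0.01%. The dashed line is the 1% threshold of a lens cell and the dotted lines are the range limits of 1% and 10%. Control lens cells climb from the lower band to above 10% gamma crystallin, where 64 lie, while 309 of 343 DKO lens cells stay under 1%.

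**Figure D2:**
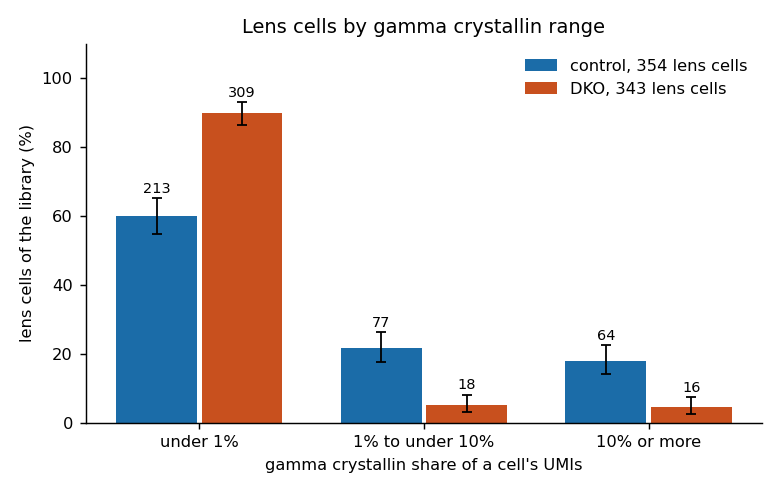
Bars give the percent of each library's lens cells in 3 ranges of gamma crystallin share, starting at 0, with exact 95% binomial intervals for counting error and the number of cells above each bar. The control bars are at 60.2, 21.8 and 18.1% and the DKO bars at 90.1, 5.25 and 4.66%.

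The cells at 10% gamma crystallin or more were shallow. Median depth was 1452.5 UMIs over a median of 434.5 genes for control cells, and for DKO cells 1333.5 UMIs over 379.5 genes, near the lower limit on genes per cell. With cells under 1000 genes left out, only 12 control cells (5.26%) and 1 DKO cell (0.386%) remained at 10% or more. The limits also removed 36 control and 22 DKO cells with 1% alpha crystallin or more, of which 11 and 2 held 10% gamma crystallin or more. A single cell supplied 12.7% of the UMIs of the control range and another 59.2% of those of the DKO range, so DKO values at 10% or more are largely those of 1 cell. The part of depth in these shares was not tested.

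Many lens cells also held next to no mitochondrial transcripts. Under 1% mitochondrial UMIs were found in 110 control lens cells (31.1%) and 76 DKO lens cells (22.2%), against 11.1% and 8.96% of the other kept cells. Most of these had little gamma crystallin: 82 control and 67 DKO cells with under 1% gamma crystallin, 20 and 6 in the middle range, and 8 and 3 at 10% or more. Those with under 1% gamma crystallin had medians of 1891.5 and 1605 UMIs, against 15494 and 9762.5 UMIs in the remaining cells of that range. Without all lens cells under 1% mitochondrial UMIs, the share at 10% gamma crystallin or more was 22.95% in the control and 4.87% in the DKO library.

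**Figure D3:**
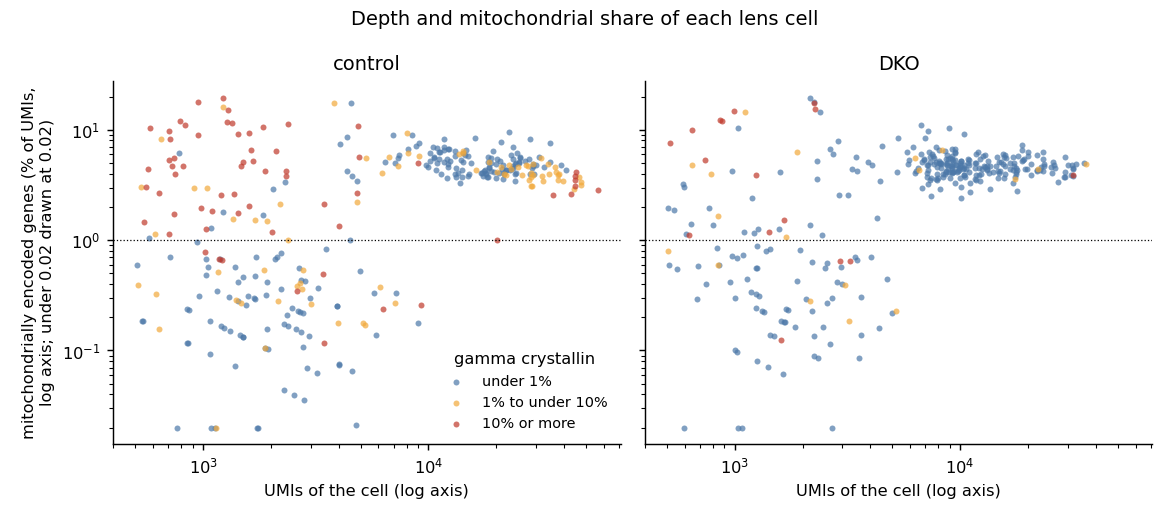
Each point is a lens cell, with its UMIs on the x axis and the percent of UMIs from mitochondrially encoded genes on the y axis, both on log axes, with shares under 0.02% drawn at 0.02%. Colours give the gamma crystallin range and the dotted line marks 1%. In both libraries the cells under the line have few UMIs, and most cells at 10% gamma crystallin or more lie at the shallow end, with medians of 1452.5 and 1333.5 UMIs.

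This scale was set by Crygs and 6 further gamma crystallin genes. These 6, Cryga to Crygf, lie on mouse chromosome 1. In the annotation (GRCm38) Cryga to Cryge form a cluster between 65048554 and 65103373 on the minus strand, and Crygf lies apart at 65926520 to 65928307 on the plus strand. These genes were lower together over all DKO lens cells. Their upstream sequences are shown as a description, and their part in the lower levels was not tested. Each window covers 120 bases before the RefSeq start (GRCm38.p6), written 5′ to 3′ in the direction of the gene. Capitals mark TTTGTG and TATATA, 2 strings chosen after the windows had been read, and copies of TATATA overlap in Cryga and Crygb. The Crygc window, which also holds both, lies inside an annotated longer transcript and is left out.
Cryga, chr1:65103364-65103483, minus strand: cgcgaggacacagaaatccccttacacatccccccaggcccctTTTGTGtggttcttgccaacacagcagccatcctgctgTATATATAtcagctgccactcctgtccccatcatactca
Crygb, chr1:65082291-65082410, minus strand: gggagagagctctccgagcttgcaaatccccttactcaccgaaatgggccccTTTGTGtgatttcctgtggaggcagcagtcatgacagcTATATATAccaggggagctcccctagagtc
Crygd, chr1:65063441-65063560, minus strand: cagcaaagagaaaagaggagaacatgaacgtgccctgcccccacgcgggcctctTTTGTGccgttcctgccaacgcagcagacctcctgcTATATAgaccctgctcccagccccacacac
Cryge, chr1:65051164-65051283, minus strand: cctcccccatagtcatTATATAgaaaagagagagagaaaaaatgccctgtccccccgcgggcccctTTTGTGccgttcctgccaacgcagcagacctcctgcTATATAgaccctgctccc
Crygf, chr1:65926402-65926521, plus strand: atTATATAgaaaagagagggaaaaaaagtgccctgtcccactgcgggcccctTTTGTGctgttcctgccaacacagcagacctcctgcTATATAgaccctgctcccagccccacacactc

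TTTGTG began at position -77 in Cryga, -68 in Crygb, -66 in Crygd, -54 in Cryge and -68 in Crygf, counted back from -1 at the base before the start. A TATATA followed nearer to the start in each. All 6 gamma crystallin windows held both strings on the printed strand, which was fixed by choosing the strings from them. Of 32851 RefSeq windows of the same length, these 6 included, 41 held both (0.125%). On either strand TTTGTG occurred in 7.303% of all windows and TATATA, which reads the same on both, in 2.51%. The genes are also alike in their transcripts. The last 500 bases of the longest coding transcript of Cryge shared a run of 134 bases with Crygf, and those of Crygc shared 128 bases with Crygb, and 22.1% of the 90-base runs in Cryge occurred in another gamma crystallin gene. Counts could therefore be split between these pairs, and values of Cryge, Crygf, Crygb and Crygc are uncertain to that extent.

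Along the gamma crystallin scale control lens cells held more beta crystallin, fewer transcripts of dividing and epithelial cells, and more of fibre genes. The ranges were cut from these counts, so levels across them are a description with no test. Crybb1 went from 2855 CPM under 1% through 27342 to 53845 CPM at 10% or more, and Cryba4 from 144 through 8024 to 24225 CPM. Within the gamma crystallins, Cryga went from 38.7 through 11580.5 to 48330.3 CPM, and Crygc only from 777 through 4526 to 12268 CPM. Cryaa differed less between the end ranges, from 27165 to 82683 CPM, and Cryab was lower in mature cells, with 7898 CPM under 1% and 2005 CPM at 10% or more. Alpha, beta and gamma crystallins together took 6.03% of all UMIs under 1%, 26.4% in the middle range and 50.1% at 10% or more.

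Most other genes had lower CPM at 10% or more, where crystallins took a large part of the total. Of 3558 genes with at least 100 UMIs over both end ranges of the control, 2298 (64.6%) were at least 2-fold lower and 57 (1.6%) at least 2-fold higher, with a median log2 ratio of -1.28. With crystallins left out of the totals, the median was -0.38, and 923 of 3544 other genes were lower and 169 higher. Against this background all 18 replication and mitosis genes counted were lower, with a median of -4.36 (-3.44 without crystallins in the totals). Top2a, the topoisomerase of dividing cells, had 215 CPM under 1%, 5.75 in the middle range and 4.5 at 10% or more. Ube2c, Birc5 and Lig1, all genes of division or replication, were among the 10 genes with the lowest ratio.

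Of 8 lens epithelium genes 6 were at least 2-fold lower at 10% or more, a share near the 64.6% of all genes. Their median was -3.05 (-2.14 without crystallins in the totals), against -1.28 (-0.38) over all genes. Cdh1, the epithelial cadherin, had 81.1 CPM under 1%, 0.821 in the middle range and no UMI at 10% or more (upper limit 8.3 CPM). Pax6, the master regulator of eye development, differed less, with 317, 172 and 65.3 CPM. Mest, an imprinted gene, had the lowest ratio of the genes above 50 CPM, -6.59 (-9.64 to -4.73).

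Fibre genes differed in where along the scale they were highest. Of 15 fibre membrane and cytoskeleton genes counted in the control, 7 were at least 2-fold higher at 10% or more and 2 lower. Over all genes the shares were 1.6% higher and 64.6% lower. The median of the list was 0.93 (1.84 without crystallins in the totals), against -1.28 (-0.38) over all genes. Bfsp1, a beaded filament protein, had 21.7, 117 and 419 CPM, Capn3, a calpain, 203, 1117 and 2012 CPM, and Mip 247, 1363 and 2029.6 CPM. Maf, which drives crystallin genes in fibres, was highest in the middle range, with 814, 1671 and 1006 CPM, and Hsf4, a heat shock factor of fibres, 9.77, 56.7 and 101 CPM. Outside the lists the highest control ratios belonged to Pla2g7, a phospholipase, at 6.70, the mutase gene Pgam2 at 3.85, Gje1 at 3.77 and the calmodulin-binding Pcp4 at 3.43.

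The 18 DKO cells of the middle range held more division transcripts than the 77 control cells. The 24 replication and mitosis genes summed to 1296 CPM there (95% interval 1099 to 1517) against 155 CPM (134 to 179) in the control. Retinal markers were higher in the same cells: the progenitor markers summed to 682 against 171 CPM and those of neurogenic and ganglion cells to 749 against 200.4 CPM. These 18 cells held 118843 UMIs, of which 1 cell gave 30.3%, and the part of retinal RNA in the difference was not tested.

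**Figure D4:**
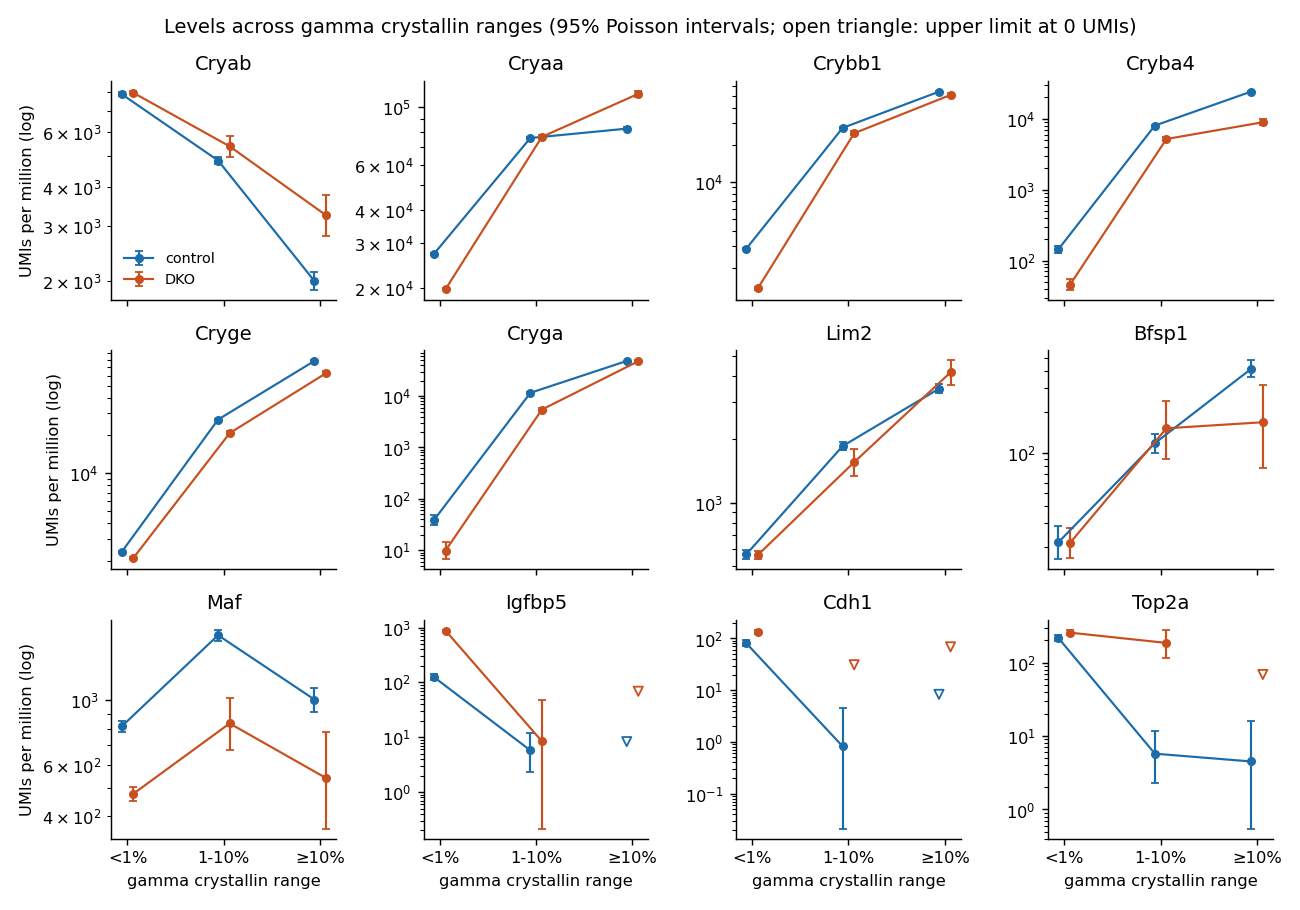
Levels of 12 genes in CPM (log axes) over the lens cells of each gamma crystallin range, in the control (blue) and DKO library (orange), with exact 95% Poisson intervals and open triangles at the upper limit where no UMI was counted. Beta and gamma crystallins are higher from left to right, Cryab, Cdh1 and Igfbp5 go down, and Maf peaks in the middle range. Under 1% Igfbp5 is at 879.9 CPM in the DKO library and 125 CPM in the control.

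Over all lens cells the DKO library was lower in crystallin and fibre genes and higher in epithelial genes. Of 6492 genes with at least 100 UMIs over the lens cells of both libraries, 224 (3.45%) were at least 2-fold higher in the DKO library and 96 (1.48%) at least 2-fold lower. The median log2 ratio of all genes was 0.23, and 0.054 with crystallins left out of the totals, since they took 17.1% of control and 6.08% of DKO UMIs. With that scaling 113 genes were higher and 126 lower. Each log2 ratio then moves by -0.18, and Crybb2, Tfap2a, Mab21l1, Ccnb2, Aurkb, Hk2 and Mest no longer pass 2-fold.

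All 7 gamma crystallins and 5 of 6 beta crystallins were at least 2-fold lower in DKO lens cells, against 1.48% of all genes. Their median log2 ratios were -2.85 and -1.96, against 0.23 over all genes. The gamma crystallins set the maturity scale, so their lower levels are no result apart from the smaller DKO share of cells high on it. Crygb had the lowest ratio among genes above 50 CPM, at 1896 CPM in the control and 139 CPM in the DKO library, a log2 ratio of -3.77 (95% interval -3.91 to -3.63). Cryba4 followed at 5198 CPM in the control and 395 CPM in the DKO library, -3.72 (-3.80 to -3.64). Cryga was at 8882 CPM in the control and 1042 CPM in the DKO library, -3.09 (-3.14 to -3.04), and Cryge at 18195 CPM in the control and 3870.4 CPM in the DKO library, -2.23 (-2.26 to -2.21). Crystallin RNA was also lower in the other kept cells, where Cryga had 27.4 CPM in the control and 7.06 CPM in the DKO library. Cryaa and Cryab chose the cells, so their ratios depend on that choice. Cryaa was at 48137 CPM in the control and 23622 CPM in the DKO library, -1.03 (-1.04 to -1.01). Cryab, the alpha crystallin gene that is not limited to lens, was not lower, at 6322 CPM in the control and 7799 CPM in the DKO library, 0.30 (0.28 to 0.33). Crybb2, which was scarce at this stage, was the 1 beta crystallin at least 2-fold higher, with 14.2 and 31.2 CPM. Some directions depended on which cells were summed. Crybb2 had a log2 ratio of -1.05 in cells with 5% alpha crystallin or more, and Cryaa one of 0.17 with the 3 gamma crystallin ranges weighted equally. Equal weights lean on the 18 and 16 DKO cells of the upper ranges.

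Many fibre genes were lower and most epithelial genes higher. None of 17 fibre membrane and cytoskeleton genes was at least 2-fold higher and 7 were lower, against 3.45% and 1.48% of all genes, with a median of -0.78. With the 3 gamma crystallin ranges weighted equally, Capn3 (-1.17) and Rbm24 (-1.31) of these 7 were still past 2-fold, and Bfsp1 (-0.71), Caprin2 (-0.85), Nrcam (-0.87), Mip (0.056) and Tdrd7 were not. That weighting leans on the few DKO cells of the upper ranges. Mip was at 783 CPM in the control and 248 CPM in the DKO library, -1.66 (-1.77 to -1.54). Capn3 was at 680.3 CPM in the control and 172 CPM in the DKO library, -1.99 (-2.12 to -1.85). Of 9 lens epithelium genes 6 were at least 2-fold higher and none lower (3.45% and 1.48% of all genes), with a median of 1.29. This list and the fibre list were chosen with earlier results of these data known, so their counts are a description and no test. Cdh1 was at 47.8 CPM in the control and 127 CPM in the DKO library, 1.40 (1.15 to 1.66). Pdgfra, the PDGF receptor of the epithelium, was at 51.3 CPM in the control and 121 CPM in the DKO library, 1.24 (0.99 to 1.495). For Wls, which carries Wnt proteins to the surface, and the connexin gene Gja1, the other DKO cells were higher as well: Wls went from 6.07 to 96.2 CPM there and from 60.02 to 147 CPM in lens cells, Gja1 from 51.8 to 200.4 and from 14.2 to 68.1 CPM.

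The 10 genes with the highest ratio over all lens cells included Igfbp5, R3hdml, Anxa1, Gabrg3, Sulf1, Npnt, Gpx8, Ppp1r1a and S1pr3. Igfbp5 encodes a binding protein of insulin-like growth factors and was at 74.96 CPM in the control and 831 CPM in the DKO library, 3.47 (3.30 to 3.65), whereas in the other cells it was lower in the DKO library (91.8 and 51.2 CPM). R3hdml was at 74.7 CPM in the control and 589.9 CPM in the DKO library, 2.98 (2.80 to 3.16). Anxa1, a calcium-dependent phospholipid-binding annexin, was at 49.3 CPM in the control and 279 CPM in the DKO library, 2.50 (2.28 to 2.73). The remaining genes had log2 ratios between 1.53 and 2.05.

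Since the libraries differed in how many mature cells they held, the comparison was repeated in the 213 control and 309 DKO cells with under 1% gamma crystallin. There 51 of 5857 genes (0.871%) were at least 2-fold higher and 37 (0.632%) lower, and the median log2 ratio was 0.034. The range still held more early fibres in the control, where the upper quartile of the beta crystallin share was 2.48% against 1.72% in the DKO library. A narrower set was therefore added after seeing the data, the 150 control and 252 DKO cells with under 1% gamma and under 2% beta crystallin. In it 29 of 5073 genes (0.572%) were higher and 19 (0.375%) lower, with a median of 0.0097. Crystallin values inside these sets are partly fixed by the choice of cells.

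In the narrower set 12 of 13 fibre genes counted were within 2-fold, as were most of all genes (0.572% higher and 0.375% lower). The exception was Rbm24, which was lower in the DKO library. The median of the list was 0.27. Mip had a log2 ratio of 0.28 (0.0083 to 0.55), Bfsp1 0.23 (-0.59 to 1.08), Capn3 0.11 (-0.16 to 0.39) and Lim2 0.63 (0.47 to 0.78). Among crystallins Crybb1 stood at 0.43 (0.28 to 0.58) and Cryge at 0.33 (0.26 to 0.40), but Cryba4 remained lower, with 27 control and 11 DKO UMIs (log2 ratio -1.996, interval -3.16 to -0.94), and so did Cryga, with 18 and 10 UMIs (log2 ratio -1.55, interval -2.83 to -0.36). In red blood cells, which should lack crystallins, 9.62% of control and 1.498% of DKO cells had a Cryga UMI, against 18.3% and 3.88% of lens cells under 1% gamma crystallin. With cells thinned to 2000 UMIs these shares were 2.88% and 1.196% in red blood cells and 2.45% and 1.99% in those lens cells. The thinned lens shares rest on 163 control and 251 DKO cells. Those lens cells were chosen for little gamma crystallin, Cryga included, and red blood cells were not. The part of RNA from other cells in the Cryga counts was not tested. Median depths before thinning were 9914 and 8569 UMIs in these lens cells and 8110 and 5881 UMIs in red blood cells.

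Some differences persisted among the least mature cells. Igfbp5 was at 191 CPM in the control and 1012 CPM in the DKO cells of the narrower set, 2.41 (2.23 to 2.59). It was found in 11.04% of control and 49.8% of DKO cells under 1% gamma crystallin after thinning (15.5% and 53.4% before), and in 0.935% and 1.196% of thinned red blood cells. R3hdml (log2 ratio 1.94, interval 1.76 to 2.12), Anxa1 (log2 ratio 1.63, interval 1.39 to 1.88) and Gabrg3, a GABA receptor subunit (log2 ratio 1.40, interval 1.04 to 1.78), likewise stayed past 2-fold. Sparc, a matrix protein of the lens epithelium and capsule, stood at 712 and 1595 CPM, 1.16 (1.07 to 1.26), more than over all lens cells (0.85). Cdh1 (log2 ratio 0.50, interval 0.22 to 0.78) and Pdgfra (log2 ratio 0.48, interval 0.20 to 0.78) were higher by less than 2-fold. Of 9 lens epithelium genes 2, Sparc included, were at least 2-fold higher in the narrower set and none lower. All genes had shares of 0.572% and 0.375% there, and the median of the list was 0.75.

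Rbm24, an RNA-binding protein of the lens, was lower in all 3 sets of cells. It had 305 CPM in the control and 58.5 CPM in the DKO library over all lens cells, 249 and 49.997 CPM under 1% gamma crystallin, and 90.4 and 25.6 CPM in the narrower set, where the log2 ratio was -1.82 (-2.27 to -1.38). After thinning, 24.5% of control and 6.77% of DKO cells under 1% held a UMI of it (43.7% and 19.7% before), with 0.3597% and 0.217% of red blood cells. In the control it was highest in the middle range (249, 450.1 and 205 CPM).

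**Figure D5:**
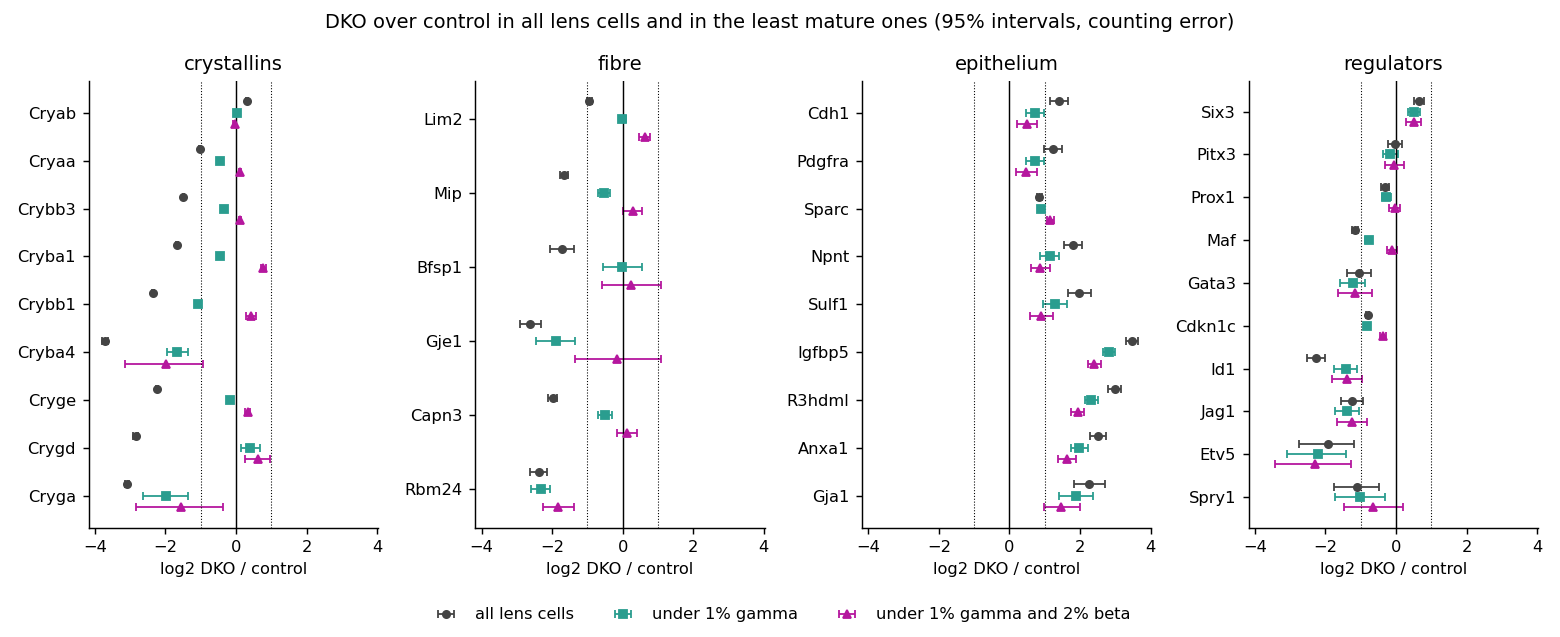
Log2 ratios of DKO over control for 34 genes in 4 groups, over all lens cells (circles), cells with under 1% gamma crystallin (squares) and cells with under 1% gamma and under 2% beta crystallin (triangles), with exact 95% intervals for counting error. Dotted lines mark 2-fold. Most crystallin and fibre ratios lie nearer to 0 as triangles than as circles, although Cryba4 and Cryga are past 2-fold lower as both. Igfbp5, R3hdml, Anxa1, Rbm24, Id1, Jag1, Etv5 and Gata3 are among the genes that stay past 2-fold in all 3 sets. The triangles of Cryba4, Cryga and Etv5 rest on few UMIs.

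Single genes of the BMP and Notch pathways were lower in DKO lens cells, while 9 of 12 were within 2-fold. Jag1, the Notch ligand of the equatorial lens, was at 88.4 CPM in the control and 37.6 CPM in the DKO library (log2 ratio -1.23, interval -1.55 to -0.93), and its ratio was -1.24 (-1.67 to -0.82) in the narrower set. Hes1, a Notch target, was at 119 CPM in the control and 188 CPM in the DKO library (log2 ratio 0.66, interval 0.48 to 0.84), but 0.11 (-0.10 to 0.33) in that set. Id1, a target of BMP signalling, was at 228 CPM in the control and 47.2 CPM in the DKO library (log2 ratio -2.27, interval -2.53 to -2.02), and -1.38 (-1.81 to -0.96) in the narrower set, and it was lower in the other DKO cells too (476 and 254 CPM). Over the whole BMP and Notch list 3 of 12 genes were at least 2-fold lower and none higher, against 1.48% and 3.45% of all genes. The median of the list lay on the other side, at 0.34, with 8 of 12 genes above 0.

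Of 11 genes of the FGF and ERK response 2 were at least 2-fold lower and none higher (1.48% and 3.45% of all genes), with a median of -0.043. These were Etv5, an ERK-induced transcription factor, with 89 UMIs in the control and 18 in the DKO lens cells (log2 ratio -1.94, interval -2.76 to -1.20), and the feedback inhibitor Spry1, with 83 and 30 UMIs (log2 ratio -1.10, interval -1.75 to -0.48). In the narrower set Etv5 had 33 and 11 UMIs (log2 ratio -2.29, interval -3.42 to -1.27) and Spry1 26 and 27 (log2 ratio -0.65, interval -1.48 to 0.19). Etv5 was also lower in the other cells, by less (14.4 and 9.31 CPM). Dusp6, another ERK feedback gene, had a ratio of -0.13 (-0.56 to 0.28), and the receptor genes Fgfr1, Fgfr2 and Fgfr3 had -0.13 (-0.41 to 0.15), 0.40 (0.14 to 0.67) and -0.043 (-0.46 to 0.37).

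Among 21 lens transcription factors 4 were at least 2-fold higher and 3 lower, against 3.45% and 1.48% of all genes, with a median of 0.25. Maf was at 1095 CPM in the control and 493 CPM in the DKO library, -1.15 (-1.24 to -1.07), under 1% gamma crystallin at -0.77 (-0.87 to -0.67), and in the narrower set at -0.11 (-0.25 to 0.037), an interval that includes 0. Hsf4 was at -1.48 (-2.04 to -0.95) over all lens cells. Gata3, which takes part in cell cycle exit of fibres, was at 65.7 CPM in the control and 31.8 CPM in the DKO library, -1.05 (-1.40 to -0.71), and stayed lower in the narrower set, -1.16 (-1.65 to -0.68). Tfap2a, Mab21l1 and Mab21l2 were among the higher ones, with log2 ratios between 1.01 and 1.195, although Tfap2a stood at -0.42 in cells with 5% alpha crystallin or more. Pitx3 and Prox1, which act in epithelium and fibre elongation, stood at -0.03 (-0.22 to 0.16) and -0.31 (-0.42 to -0.20), and Pax6 at 0.42 (0.29 to 0.55).

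Of the targeted genes, Six6 was lower in the DKO library and Six3 was not lower in lens cells. RNA left from the mutant alleles can be counted as well, so these levels do not measure the deletions themselves. Six6 was at 15.2 CPM in the control and 2.89 CPM in the DKO library in lens cells, from 61 and 9 UMIs, and at 296 and 45.6 CPM in the other cells. In the control its lens level was 5.13% of that in the other cells. Retinal markers varied in this share, with 6.15% for Rax and 4.65% for Atoh7. It was 13.3% over the progenitor markers, Six6 included, and 3.57% over those of neurogenic and ganglion cells. The part of retinal RNA in the Six6 counts was not tested. Six3 was at 163 CPM in the control and 257 CPM in the DKO library in lens cells, 0.65 (0.50 to 0.80), and at 0.50 (0.30 to 0.70) in the narrower set, against 355 and 337 CPM in the other cells.

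Genes of cell division had similar summed levels among cells under 1% gamma crystallin. Over all lens cells 2 of 22 replication and mitosis genes, Ccnb2 and Aurkb, were at least 2-fold higher and none lower (3.45% and 1.48% of all genes), and neither passed with totals without crystallins. The list had a median of 0.70. Under 1% gamma crystallin the 24 genes summed to 1981 CPM in the control and 2107 CPM in the DKO library, and none of 22 genes passed 2-fold, as few of all genes did (0.871% higher and 0.632% lower). Top2a had 215 and 255 CPM there, and was found in 25.8% and 23.9% of thinned cells (43.7% and 38.2% before), with 4.24% and 4.35% of thinned red blood cells. Cdkn1c, the p57 inhibitor that accompanies exit from the cycle at the equator, was at 2823 CPM in the control and 1614 CPM in the DKO library, -0.81 (-0.85 to -0.76). In the narrower set its ratio was -0.36 (-0.44 to -0.28).

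Capsule and stress genes were within 2-fold over all lens cells, as were most genes, of which 3.45% were higher and 1.48% lower. None of 12 lens capsule genes was 2-fold higher or lower over all lens cells (median 0.36), although Sparc of that list passed it in the narrower set and Col4a2, a collagen IV chain, stood at 0.61 (0.46 to 0.77) there. Of 20 glycolysis and hypoxia genes 3 were at least 2-fold higher and none lower (median 0.57). Ankrd37, a hypoxia-induced gene, had 41 and 113 UMIs (log2 ratio 1.83, interval 1.30 to 2.38) and was the 1 gene of the list still past 2-fold in the narrower set (log2 ratio 1.37, interval 0.72 to 2.08), while in the other cells it had 18.8 and 32.8 CPM. No heat shock, immediate early or mitochondrially encoded gene counted passed 2-fold in either direction, among 8, 10 and 13. Malat1, a nuclear RNA, was at 23759 CPM in the control and 14901 CPM in the DKO library (log2 ratio -0.67, interval -0.69 to -0.66), and Meg3, an imprinted long noncoding RNA, at 519 CPM in the control and 187 CPM in the DKO library (log2 ratio -1.47, interval -1.61 to -1.34).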

How the data were processed

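Eyecups were dissociated with papain and captured with the 10x Genomics Single Cell 3′ kit. The authors mapped reads to mm10 with Cell Ranger (3.1.0, per the labels) and deposited integer UMI counts per gene and cell without normalization. The study's own limits of 201 to 5999 genes a cell and less than 20% of UMIs from mitochondrial genes were applied, which left 9822 control and 12146 DKO cells, and a limit of 20% on hemoglobin UMIs was added. Lens cells held 1% or more of UMIs in Cryaa and Cryab. The members and gene lists were chosen with earlier results of these data known. Levels are UMIs summed over cells, per 1000000 UMIs of those cells (CPM). Genes were counted with at least 100 UMIs over both libraries, and past 2-fold is a rule of size. Intervals are exact Poisson (levels), exact binomial split (ratios) and Clopper-Pearson (shares) intervals at 95%. A count of 0 was set to 3 UMIs in a ratio. Scrublet, run from scanpy 1.11.5, gave each cell a doublet score, and doublets were kept, apart from an alternative. The lower of the automatic thresholds, 0.2334 for DKO against 0.6079 for control cells, was used for both. Thinning drew 2000 UMIs a cell and left out 50 control and 58 DKO cells under 1% gamma crystallin, and 55 and 81 red blood cells. Named genes were list genes with at least 100 UMIs, markers of identity, the targeted genes and the 10 highest and lowest ratios of each comparison among genes at 50 CPM or more. Coordinates are from GENCODE vM21, promoters from RefSeq. Ratios were tested on simulated counts. Python 3.11.15, numpy 2.4.6, scipy 1.17.1, pandas 2.3.3 and matplotlib 3.10.9 were used.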

Additional observations from a re-analysis of the deposited data

How the results depend on the processing

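No paired analysis was possible because a single library stood for each genotype. The share of lens cells in the control and the DKO library was 4.79% and 3.59% with an alpha crystallin threshold of 0.5%, 1.99% and 0.576% with 5%, 3.11% and 2.59% without cells under 1000 genes, and 2.87% and 2.34% without lens cells under 1% mitochondrial UMIs (added after seeing the data). Thinning to 2000 UMIs gave 3.38% in the control and 2.702% in the DKO library. The share at 10% gamma crystallin or more was 33.9% and 19.7% with the threshold of 5%, 5.26% and 0.386% without cells under 1000 genes, 9.68% and 1.87% after thinning, 7.91% and 1.75% at a limit of 20%, 25.99% and 5.83% at 5%, and 22.95% in the control without lens cells under 1% mitochondrial UMIs. It was lower in the DKO library in every one of these settings. With the threshold of 5% the counting intervals of the libraries overlap, and in no setting do they cover the spread between embryos.

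Genes at least 2-fold higher and lower in DKO lens cells numbered 146 and 92 with the threshold of 0.5%, 60 and 46 with 5%, 28 and 26 after thinning (1481 genes counted), 113 and 126 with totals without crystallins, 228 and 194 with the 3 gamma crystallin ranges weighted equally, 21 and 35 at a floor of 500 UMIs, 1376 and 492 at 1 UMI in each library, and 387 and 100 with every cell weighted equally (added after seeing the data). Fewer genes reach the floor under the stricter settings, and for the remaining moves the cause was not tested. Of 66 genes examined one by one with a ratio past 2-fold, all kept their direction without doublets, cells under 1000 genes, cells over 10% mitochondrial UMIs or lens cells under 1% mitochondrial UMIs, and 59 stayed past 2-fold with totals without crystallins. With the 3 ranges weighted equally 27 did, and Cryaa (0.17), Mip (0.056), Pla2g7 (0.65), Pgam2 (0.43) and Pcp4 (0.73) reversed. This weighting leans on the 18 and 16 DKO cells of the upper ranges, where 1 cell gave 30.3% and 59.2% of the UMIs. With the threshold of 5% Crybb2 (-1.05), Tfap2a (-0.42) and Hk2 (-1.83) reversed. In cells under 1% gamma and 2% beta crystallin, set against all cells under 1% gamma crystallin, Cryba2 (0.27), Crybb1 (0.43), Crygf (0.30), Crygn (0.53) and Meg3 (0.37) reversed. With 1 library a genotype, no depth can show how much of any difference varies between embryos.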

Other observations

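Grifin and Gja3, which fibres express, were not 2-fold lower in DKO lens cells. Grifin was at 301 CPM in the control and 393 CPM in the DKO library (log2 ratio 0.39, interval 0.27 to 0.50) over all lens cells, and in the middle range of gamma crystallin at 351 and 774 CPM (log2 ratio 1.14, interval 0.80 to 1.47). The DKO value of the middle range comes from 18 cells, of which 1 gave 30.3% of the UMIs. Gja3 was at 333 CPM in the control and 279.8 CPM in the DKO library (log2 ratio -0.25, interval -0.37 to -0.13), and under 1% gamma and 2% beta crystallin it was higher in the DKO library, 0.75 (0.53 to 0.97). Col6a3, a collagen VI chain higher in lens than in other control cells (105 against 0.245 CPM), was at -1.26 (-1.54 to -0.97) in DKO over control lens cells and -0.73 (-1.27 to -0.18) in that set.

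Among kept cells under the threshold, 10 control and 4 DKO cells held 1% gamma crystallin or more, and 32 and 28 held 1% beta crystallin or more.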
